A study of Homo sapiens with 6 samples.

Results

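The nuclear-encoded subunits of oxidative phosphorylation were examined in clones of MiaPaCa2, an established human pancreatic ductal adenocarcinoma cell line. Genes were chosen by symbol alone: the patterns NDUFA, NDUFB, NDUFC, NDUFS and NDUFV with a number, SDHA to SDHD, UQCR, COX4 to COX8 and ATP5, leaving out pseudogene symbols and symbols with a hyphen. The rule found 86 of the 26334 gene symbols in the count table, and 79 of them had enough reads to be tested among 13659 genes. The study set 3 ZEB1-KO clones against 3 WT clones. Both kinds of clone were sorted for GFP after electroporation with a Cas9-GFP plasmid. The plasmid also carried a ZEB1 guide RNA for the ZEB1-KO clones, and no guide is named for the WT clones. ZEB1 is a zinc-finger repressor that drives epithelial-to-mesenchymal transition. Poly(A) RNA of a small number of lysed cells was copied and amplified by SMART-Seq2. Each library is 1 clone, so that differences between clones and effects of the edit are told apart only as far as 3 against 3 clones allow.

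Oxidative phosphorylation moves electrons from NADH and succinate to oxygen through complexes I to IV of the inner mitochondrial membrane. The proton gradient that complexes I, III and IV build drives ATP synthesis by complex V. A few subunits are encoded in mitochondrial DNA, and those genes were not analysed here. The others are nuclear genes, many of them short and highly expressed, whose proteins are imported into the mitochondrion. Within complexes I, III, IV and V a small set of catalytic subunits carries the redox centres or the nucleotide sites, and many small accessory subunits surround them.

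Total counts ran from 18909305 in ZEB1-KO replicate 1 to 42876693 in WT replicate 1, and 3 counts, the limit that a count of 0 allows, corresponded to 0.0687 to 0.150 CPM (read counts scaled to library size). ZEB1 stood at 34.04, 31.2 and 33.6 CPM in the WT clones and at 3.34, 3.46 and 11.5 CPM in the ZEB1-KO clones. Its log2 fold change was -2.43 (SE 0.49, adjusted p = 0.0930, edgeR's quasi-likelihood test). The labels do not say which part of the gene was deleted. The keratins KRT8 and KRT18 and vimentin (VIM) were abundant in every library, and CDKN2A, which this line lacks, had 0 counts throughout. Markers of acinar, islet and fibroblast cells had at most 3 counts in any library. So did CD3E, PTPRC and VWF, while LYZ reached 126 counts, PECAM1 23 and CDH5 59.

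Transcripts of the subunits were mostly less abundant in the ZEB1-KO clones. Of the 79 tested genes, 67 had a negative log2 fold change (ZEB1-KO over WT) and 12 a positive one. The median was -0.63, against -0.0082 over all genes tested, of which 50.6% were negative. Among the redox and core subunits the values were mixed. The redox subunits NDUFV1 and UQCRFS1 and the main F1 subunits ATP5B and ATP5A1 differed by less than 1 SE, and SDHA and SDHC stood higher. Lower were the redox subunits NDUFS8 (-0.95), NDUFS7 (-0.65), SDHB (-0.64) and NDUFV2 (-0.61) and the F1 subunit ATP5C1 (-0.91). The subunits took 4.02%, 3.96% and 3.82% of all counts in the WT clones and 3.45%, 2.83% and 2.87% in the ZEB1-KO clones.

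No single subunit passed a Benjamini-Hochberg adjusted p of 0.05 by edgeR's quasi-likelihood test, which called 0.117% of all genes higher and 0.0586% lower. The smallest adjusted p among them was 0.0621, for ATP5J. At an unadjusted p below 0.05, 40 of the 79 were lower (50.6%) and 0 were higher, where 8.04% of all genes were lower and 9.64% higher. Other scalings put some subunits past this p on the higher side: 34 were lower and 2 higher with library size alone, and 20 lower and 4 higher on log2(TPM + 1). The share of all genes lower at that p was 5.15% with library size alone and 3.67% on log2(TPM + 1). The share higher was not computed for these scalings, on which the median log2 fold change of all genes was 0.138 and 0.233. In 41 subunit genes all ZEB1-KO clones lay below all WT clones, and in 2 (SDHC and COX5A) they lay above. Over all genes those shares were 11.7% lower and 11.9% higher.

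Looser tests called some subunits, in each case lower in the ZEB1-KO clones. DESeq2 called 14 subunits lower and 0 higher, where it called 2.78% of all genes lower and 4.34% higher. The authors' deposited table listed 77 of the subunits and gave an adjusted p below 0.05 to 11, all lower, where it called 1.92% of its genes lower and 2.82% higher. These 11 were ATP5C1, ATP5H, ATP5J, ATP5O, COX6C, NDUFA1, NDUFA2, NDUFA13, NDUFB6, NDUFS8 and UQCRQ, and all 11 were among DESeq2's 14. The other 3 were ATP5J2, NDUFB4 and NDUFB7. The authors' statistic is headed LR, for likelihood ratio, so edgeR's likelihood ratio test largely repeats their comparison and is no separate support. It called the same 11, where it called 241 of all genes lower and 376 higher. With the trend over transcript length removed it called 2 subunits, ATP5J of the 11 and NDUFA11. There it called 169 of all genes lower and 265 higher.

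The difference was present in each ZEB1-KO clone, with replicate 1 the least low. Each gene's log2 CPM was set against its own mean over the 6 libraries. The median deviation of the subunits was 0.19, 0.36 and 0.33 in the WT clones and -0.092, -0.44 and -0.31 in the ZEB1-KO clones, while the median of all genes stayed between -0.016 and 0.014. Relative to the WT mean, 64, 67 and 67 of the 79 genes were lower in ZEB1-KO replicates 1, 2 and 3. Of these, 48, 61 and 59 lay below every WT clone. The same counts were not made over all genes, so these counts stand without a background.

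**Figure D1:**
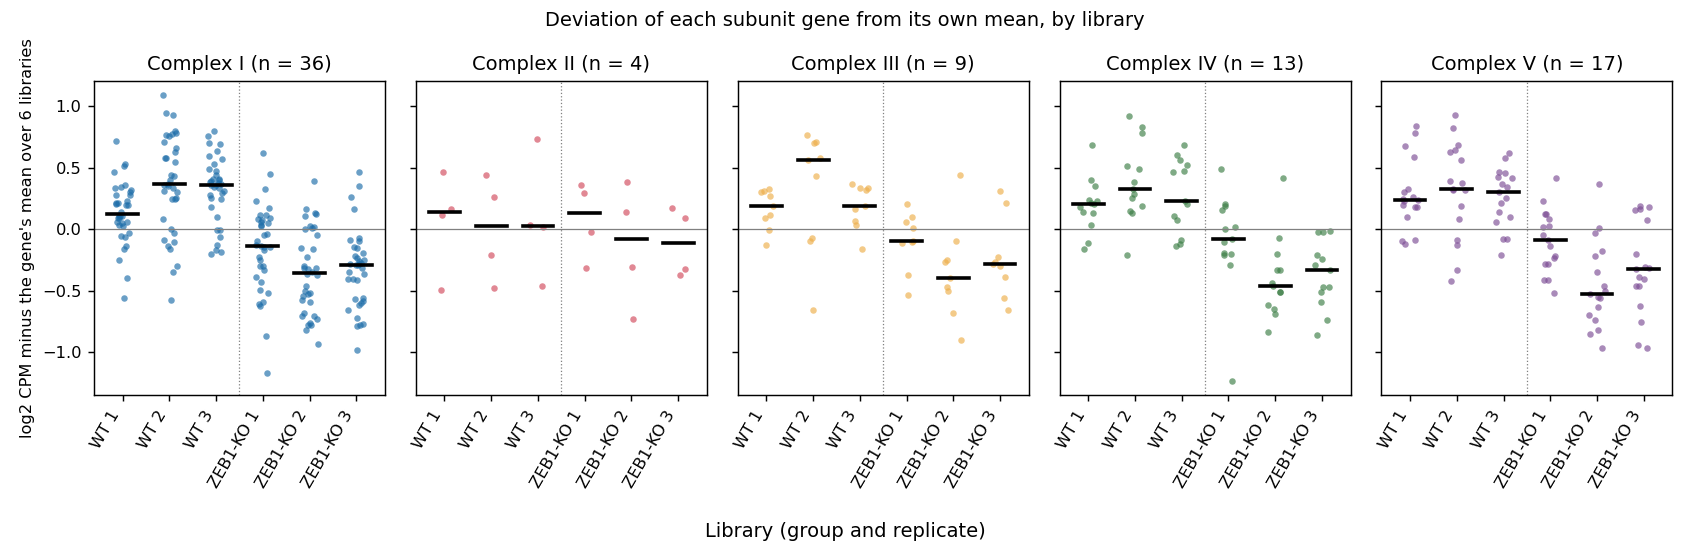
Each point is a tested subunit gene and shows its log2 CPM in a library minus its mean over the 6 libraries (vertical axis); libraries are on the horizontal axis, complexes are in separate panels, and black bars are medians. Medians of complexes I, III, IV and V are above 0 in all WT clones and below 0 in all ZEB1-KO clones, and the 4 genes of complex II are spread on both sides.

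Complex I oxidises NADH and passes its electrons to ubiquinone, and all 36 genes that the rule assigned to it were tested. Of these, 32 were lower and 19 had an unadjusted p below 0.05, with a median log2 fold change of -0.63. The 29 accessory subunits and the 7 nuclear-encoded core subunits were not alike in their values: 28 of 29 accessory genes were negative (median -0.64, 17 at an unadjusted p below 0.05), against 4 of 7 core genes (median -0.13, 2 at that p).

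Among accessory subunits, NDUFA1, a small membrane-arm protein on chromosome X and the complex I gene of highest level (mean of 2302 in deposited TPM, a level scaled to library size and transcript length), had 833, 1321 and 885 CPM in the WT clones and 625, 414 and 417 CPM in the ZEB1-KO clones. Every ZEB1-KO clone lay below every WT clone, with a log2 fold change of -1.06 (SE 0.27, quasi-likelihood adjusted p = 0.115). NDUFA2, a subunit of the peripheral arm, had 334, 450 and 336 CPM against 171, 186 and 204 CPM. Its 2 groups were far apart relative to the spread within them (log2 fold change -0.999, SE 0.21, adjusted p = 0.0942).

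NDUFB6, a membrane-arm subunit, had 221, 306 and 358 CPM against 146, 126 and 168 CPM (log2 fold change -1.01, SE 0.24). NDUFB3, also of the membrane arm, had 332, 750 and 638 CPM against 275, 264 and 323 CPM (-0.996, SE 0.30). WT replicate 1 was the lowest WT clone for both genes, though still above all ZEB1-KO clones. NDUFB4 had a log2 fold change of -0.97 (SE 0.27) and NDUFA13, also known as GRIM-19, one of -0.96 (SE 0.22).

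Other accessory subunits showed one clone apart from the rest. NDUFA9, which binds a nucleotide cofactor next to the quinone site, had 352, 366 and 514 CPM in the WT clones and 153, 376 and 440 CPM in the ZEB1-KO clones. ZEB1-KO replicate 1 alone was low, and the groups overlapped (log2 fold change -0.34, SE 0.37). NDUFB11, on chromosome X, was high in WT replicate 2 alone, with 348, 774 and 398 CPM against 447, 468 and 411 CPM. NDUFA10 was the single accessory gene of complex I with a positive value, 336, 228 and 255 CPM against 297, 290 and 348 CPM (0.19, SE 0.22). NDUFA5 had the lowest level in the complex, at a mean of 39.6 TPM, with a log2 fold change of -0.61 (SE 0.21).

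The core subunits carry the flavin and the iron-sulfur clusters. NDUFV1, which binds NADH and the flavin, had 98.4, 53.6 and 79.6 CPM against 86.6, 105 and 67.1 CPM, and NDUFS1, its large iron-sulfur partner, had 73.3, 101 and 122 CPM against 98.9, 118 and 149 CPM. Their groups overlapped, at log2 fold changes of 0.16 (SE 0.28) and 0.31 (SE 0.26).

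Other core subunits were lower. NDUFS8, a ferredoxin-like subunit, had 270, 260 and 355 CPM against 156, 179 and 123 CPM, with no overlap (-0.95, SE 0.23, adjusted p = 0.113). NDUFV2 had 546, 696 and 674 CPM against 431, 340 and 483 CPM, also without overlap (-0.61, SE 0.22). For NDUFS7 (-0.65, SE 0.29) and NDUFS3 (-0.13, SE 0.20) the groups overlapped. By relative transcript length, taken from the ratio of counts to deposited TPM and set to 1 for the median gene, NDUFS8, NDUFV2, NDUFS7 and NDUFS3 were short (0.245, 0.284, 0.240 and 0.292), while NDUFS1 and NDUFV1 were longer (1.09 and 0.497).

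**Figure D2:**
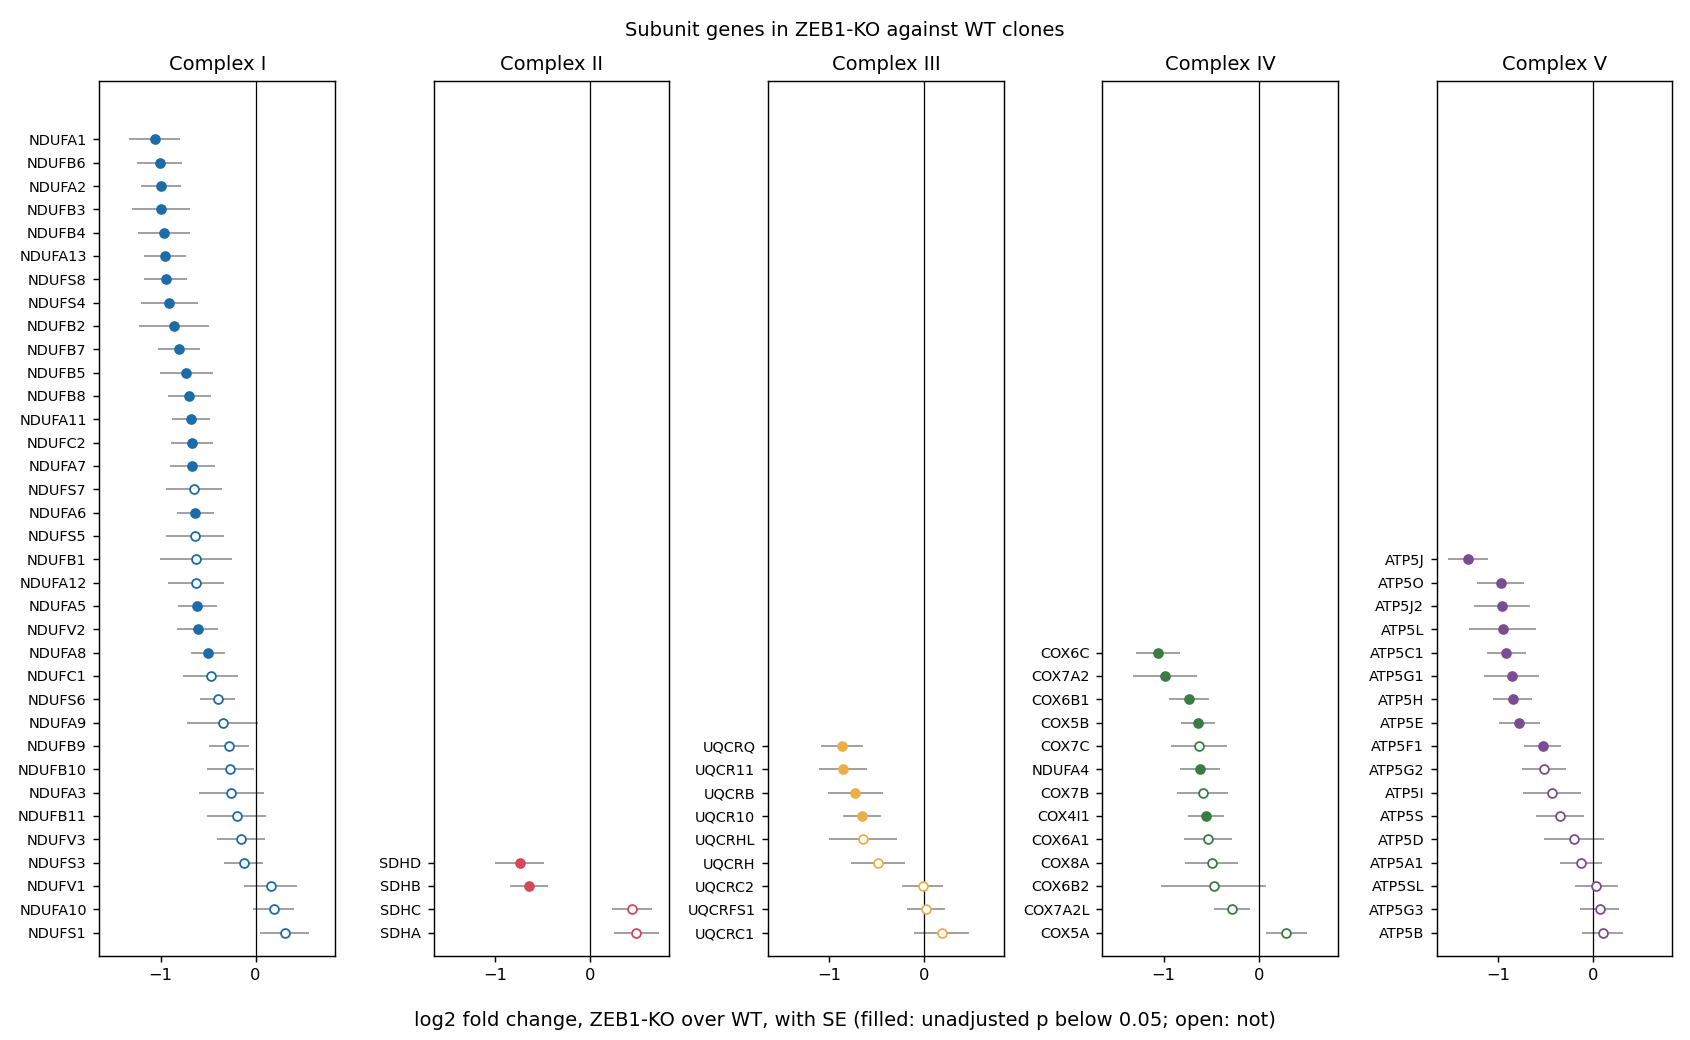
Points are log2 fold changes (horizontal axis, ZEB1-KO over WT) of 78 of the 79 tested genes, in rows by complex and ordered by value; bars are SE from edgeR's quasi-likelihood fit over 3 against 3 clones, and filled points have an unadjusted p below 0.05. All 40 filled points are below 0, and complex II is divided between a pair below and a pair above 0.

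Complex II, succinate dehydrogenase, links the tricarboxylic acid (TCA) cycle to the respiratory chain and is the one complex encoded wholly in the nucleus. Its 4 genes differed in direction. SDHA, the flavoprotein that oxidises succinate, had 169, 109 and 110 CPM in the WT clones and 185, 197 and 162 CPM in the ZEB1-KO clones. WT replicate 1 lay within the ZEB1-KO range, and the log2 fold change was 0.49 (SE 0.24, adjusted p = 0.319). SDHC, a membrane anchor, had 50.5, 61.4 and 71.7 CPM against 91.3, 78.3 and 80.0 CPM. All ZEB1-KO clones were higher (0.44, SE 0.21, adjusted p = 0.309).

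SDHB, the iron-sulfur subunit, had 760, 744 and 561 CPM against 441, 444 and 440 CPM. The ZEB1-KO clones were nearly identical and below every WT clone (-0.64, SE 0.20, adjusted p = 0.159). SDHD, the other membrane anchor, had 539, 595 and 828 CPM against 490, 300 and 384 CPM, without overlap (-0.74, SE 0.26, adjusted p = 0.194). The division followed transcript length: relative lengths were 0.851 for SDHA and 0.878 for SDHC, against 0.349 for SDHB and 0.482 for SDHD. With the trend over length removed, the log2 fold changes were 0.29 (SDHA), 0.25 (SDHC), -0.40 (SDHB) and -0.67 (SDHD). The part of length in this division was not tested. SDHA has near-identical pseudogene copies in the table (SDHAP1, SDHAP2 and SDHAP3, at mean levels of 3.63, 5.08 and 5.29 CPM in the WT clones), so reads may have been divided among them.

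Ratios of deposited TPM restate this division within each library, for the same genes and clones. The log2 ratio of SDHA to SDHB was -3.72 ± 0.31 (SD, n = 3) in the WT clones and -2.57 ± 0.14 (SD, n = 3) in the ZEB1-KO clones, a difference of 1.14. For SDHC to SDHD it went from -4.27 ± 0.13 to -3.07 ± 0.25, a difference of 1.20. The ratios SDHA to SDHD and SDHC to SDHB differed by 1.26 and 1.08. SDHA to SDHC and SDHB to SDHD differed by 0.062 and 0.12, less than their SDs between clones. In 6 of the 9 ratios formed within complex II and the c ring of complex V, described further on, the groups did not overlap. Each of these 6 had an exact two-sided permutation p of 0.1, the smallest that 3 against 3 clones allow, and 0.15 after Benjamini-Hochberg adjustment over the 9. The ratios share genes and restate the fold changes, so these p-values are no separate support.

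Promoter sequence was set beside these opposite values. The 200 bases before the first listed RefSeq start (GRCh38.p14) are shown for 3 of the complex II genes, 5′ to 3′ on the gene's strand. The capitals mark letters searched on both strands: GCGCATGCG, a recognition sequence of the activator NRF1, AAGATGGCG of YY1, CCGGAAG of ETS factors such as GABP, and the E-box letters CAGGTG and CAGGTA that ZEB1 is known to bind. SDHB lies at chr1:17054033-17054232 (minus strand), SDHD at chr11:112086673-112086872 (plus) and SDHA at chr5:218120-218319 (plus). Within the bases shown, SDHD holds an NRF1 match, which reads as overlapping matches on both strands, and an ETS match. SDHB holds an ETS match there, and SDHA holds none of the letters. The wider windows counted in the next paragraph add a CAGGTG match for SDHD and a YY1 match for SDHB. They add no match for SDHA.
SDHA: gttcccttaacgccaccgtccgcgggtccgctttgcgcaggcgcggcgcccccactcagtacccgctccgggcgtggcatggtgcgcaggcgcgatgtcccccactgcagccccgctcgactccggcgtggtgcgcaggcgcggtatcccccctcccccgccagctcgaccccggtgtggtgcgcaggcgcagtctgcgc
SDHB: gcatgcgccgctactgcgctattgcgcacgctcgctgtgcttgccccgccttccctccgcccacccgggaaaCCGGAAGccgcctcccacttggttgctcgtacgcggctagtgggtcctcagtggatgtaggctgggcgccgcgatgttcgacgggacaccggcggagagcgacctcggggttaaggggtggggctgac
SDHD: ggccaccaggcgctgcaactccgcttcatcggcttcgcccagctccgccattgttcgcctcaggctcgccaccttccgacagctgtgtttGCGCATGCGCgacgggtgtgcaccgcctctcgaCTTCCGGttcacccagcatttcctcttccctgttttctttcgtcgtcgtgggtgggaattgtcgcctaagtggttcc

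A RefSeq promoter was matched to 69 of the 86 genes, 65 of them tested. In windows from 250 bases before to 50 after the start, GCGCATGCG was present in 15.4% of the 65 subunit promoters and in 3.83% of 10491 other promoters. AAGATGGCG was present in 12.3% against 4.003%, and CCGGAAG in 29.2% against 19.5%. CAGGTG was present in 16.9% against 18.2%, and CAGGTA in 13.8% against 7.09%. Subunit genes with the NRF1 letters had a median log2 fold change of -0.59 (10 genes), and those without had -0.63 (55 genes). With CAGGTG the median was -0.25 (11 genes), and without it -0.63 (54 genes); with CAGGTA it was -0.59 (9 genes). These are matches of letters in a window, given as a description.

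Complex III passes electrons from ubiquinol to cytochrome c, and 7 of its 9 tested genes were lower, with a median log2 fold change of -0.65. Its small subunits and its large ones differed in value. UQCRQ, a small subunit near cytochrome b, had 1003, 1370 and 920 CPM in the WT clones and 557, 584 and 670 CPM in the ZEB1-KO clones. The groups were apart (-0.86, SE 0.22, adjusted p = 0.118). UQCR11 (-0.86, SE 0.26), UQCRB (-0.73, SE 0.29) and UQCR10 (-0.66, SE 0.20) each had an unadjusted p below 0.05.

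The Rieske iron-sulfur protein UQCRFS1, the catalytic member among these genes, had 558, 579 and 685 CPM against 571, 571 and 706 CPM. Both groups covered the same range (0.02, SE 0.20). The large matrix-facing core proteins UQCRC1 (0.18, SE 0.29) and UQCRC2 (-0.02, SE 0.21) also overlapped. UQCRH, the hinge protein and the most abundant of the complex at a mean of 1439 TPM, had a log2 fold change of -0.49 (SE 0.28). UQCRHL is a near copy of UQCRH, so its 0.698 to 1.39 CPM may hold reads of UQCRH. CYC1 and CYCS, the cytochromes that the rule does not take in, had log2 fold changes of -0.19 (SE 0.27) and -0.26 (SE 0.25).

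Complex IV, cytochrome c oxidase, reduces oxygen to water, and its catalytic subunits are mitochondrially encoded. All of its nuclear genes are therefore accessory or tissue forms. Of 19 genes, 13 were tested, 12 of them lower, with a median of -0.59. COX6C had 392, 571 and 491 CPM in the WT clones and 272, 186 and 239 CPM in the ZEB1-KO clones, without overlap (-1.06, SE 0.23, adjusted p = 0.0981). COX7A2, the ubiquitous form of subunit VIIa, had 546, 1160 and 985 CPM against 621, 398 and 337 CPM. ZEB1-KO replicate 1 exceeded WT replicate 1 (-0.99, SE 0.34, adjusted p = 0.187).

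COX7C was the most abundant of all subunits, at a mean of 3597 TPM. It had 1041, 1638 and 848 CPM against 920, 586 and 777 CPM, and ZEB1-KO replicate 1 lay within the WT range (-0.63, SE 0.30). COX4I1, which binds regulatory nucleotides, had 1088, 1042 and 1298 CPM against 820, 748 and 769 CPM, with no overlap (-0.55, SE 0.19, adjusted p = 0.188). COX6B1 (-0.74, SE 0.21), COX5B (-0.64, SE 0.18) and NDUFA4 (-0.62, SE 0.21), which was first assigned to complex I, each had an unadjusted p below 0.05. COX7B (-0.59), COX6A1 (-0.54), COX8A (-0.50) and the supercomplex factor COX7A2L (-0.28) did not.

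COX5A, a matrix-facing subunit, was the exception. It had 311, 291 and 316 CPM in the WT clones and 471, 320 and 334 CPM in the ZEB1-KO clones. All ZEB1-KO clones were higher, but replicate 1 carried most of the difference (0.29, SE 0.21, adjusted p = 0.505).

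The tissue-restricted forms of complex IV were absent or near the limit of detection. COX6A2, COX7A1 and COX7B2 had 0 counts in all 6 libraries. COX4I2, a form known from lung, had at most 2 counts in a library, and NDUFA4L2, a hypoxia-associated paralog of NDUFA4, at most 1. COX8C had 10, 11 and 4 counts against 4, 3 and 3, and COX6B2, a testis form, had 24, 13 and 7 against 2, 18 and 10. No difference was detectable for them at this depth.

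Complex V is the ATP synthase, with a catalytic F1 head, a membrane F0 sector and stalks that join them. Of 18 genes, 17 were tested, and 14 were lower, with a median of -0.53. ATP5J, coupling factor 6 of the peripheral stalk on chromosome 21, had 913, 830 and 795 CPM in the WT clones and 399, 273 and 345 CPM in the ZEB1-KO clones. The ZEB1-KO clones were all far below the lowest WT clone. Its log2 fold change of -1.32 (SE 0.21, adjusted p = 0.0621) was the most negative of the 79.

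ATP5O, the oligomycin-sensitivity protein at the top of the same stalk, is also on chromosome 21. It had 2214, 1540 and 1528 CPM against 1055, 686 and 947 CPM (-0.97, SE 0.25, adjusted p = 0.119). WT replicate 1 was the highest for both genes. The other 130 tested genes of chromosome 21 had a median deviation of 0.58 in WT replicate 1 and from -0.17 to -0.00070 in the other libraries, and a median log2 fold change of -0.32. Without WT replicate 1 the log2 fold changes were -1.25 for ATP5J and -0.76 for ATP5O. ATP5H (-0.85, SE 0.21) and ATP5F1 (-0.53, SE 0.20), the stalk subunits d and b, were lower at an unadjusted p below 0.05.

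In the F1 head, the catalytic subunit ATP5B had 3021, 2052 and 2444 CPM against 2612, 2532 and 2925 CPM, and its non-catalytic partner ATP5A1 had 2182, 1768 and 2127 CPM against 1866, 1511 and 2199 CPM. Both overlapped (0.10, SE 0.22, and -0.12, SE 0.22). The central-stalk subunit ATP5C1 had 944, 737 and 760 CPM against 445, 381 and 471 CPM, without overlap (-0.91, SE 0.20, adjusted p = 0.0999). ATP5C1 is on chromosome 10, whose other genes had a median deviation of 0.36 in WT replicate 1 and a median log2 fold change of -0.083. Of the small central-stalk subunits, ATP5E had -0.78 (SE 0.22) and ATP5D -0.20 (SE 0.31).

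The promoter windows of ATP5J (chr21:25735055-25735254, minus strand), ATP5C1 (chr10:7787977-7788176, plus) and ATP5A1 (chr18:46104228-46104427, minus) are shown because these genes join the largest value, a lower value and no detectable difference within 1 enzyme. Within the bases shown, ATP5J holds NRF1, YY1 and ETS letters, ATP5C1 overlapping NRF1 letters, and ATP5A1 the reverse complement of CAGGTA. The wider windows used for the promoter counts add a CAGGTG match for ATP5A1 and no match for ATP5J or ATP5C1.
ATP5J: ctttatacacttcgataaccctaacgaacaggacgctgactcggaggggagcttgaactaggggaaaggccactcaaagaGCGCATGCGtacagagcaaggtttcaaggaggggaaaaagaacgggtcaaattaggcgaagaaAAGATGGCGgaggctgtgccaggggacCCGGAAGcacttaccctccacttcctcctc
ATP5C1: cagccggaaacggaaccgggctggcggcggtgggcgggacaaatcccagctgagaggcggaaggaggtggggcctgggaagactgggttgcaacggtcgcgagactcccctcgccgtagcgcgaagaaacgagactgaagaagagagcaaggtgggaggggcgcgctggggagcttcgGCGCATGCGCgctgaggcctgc
ATP5A1: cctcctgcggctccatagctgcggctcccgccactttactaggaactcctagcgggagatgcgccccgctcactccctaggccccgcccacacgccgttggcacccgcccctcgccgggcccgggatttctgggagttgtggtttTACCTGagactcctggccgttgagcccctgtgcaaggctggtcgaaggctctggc

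The c ring of the membrane sector is built of a single mature protein that is made from 3 genes, ATP5G1, ATP5G2 and ATP5G3, with different leader peptides. ATP5G1 had 596, 838 and 721 CPM in the WT clones and 552, 368 and 271 CPM in the ZEB1-KO clones (-0.86, SE 0.29, adjusted p = 0.183). ATP5G2 had 225, 227 and 267 CPM against 216, 138 and 150 CPM (-0.51, SE 0.23). ATP5G3 had 1622, 1840 and 1641 CPM against 2039, 1491 and 1826 CPM, and its groups overlapped (0.07, SE 0.20).

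As a share of their summed TPM, ATP5G1 made up 59.0%, 64.8% and 62.2% in the WT clones and 53.1%, 51.5% and 39.5% in the ZEB1-KO clones. ATP5G3 made up 29.8%, 26.4% and 26.3%, against 36.4%, 38.8% and 49.5%. The groups did not overlap for either gene. The log2 ratio of ATP5G3 to ATP5G1 was -1.17 ± 0.17 (SD, n = 3) and -0.21 ± 0.47 (SD, n = 3). ATP5G3 is the longest of them, at a relative length of 1.06, against 0.197 for ATP5G1 and 0.392 for ATP5G2.

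**Figure D3:**
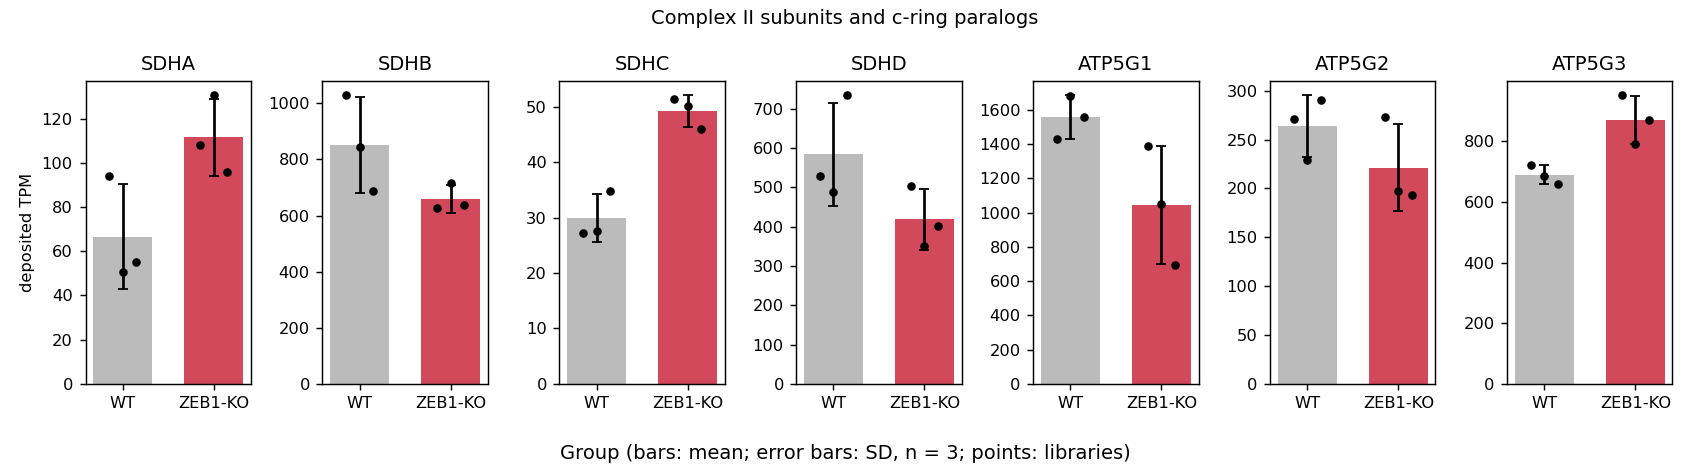
Deposited TPM (vertical axes, each from 0) of the 4 complex II genes and the 3 c-ring genes in WT and ZEB1-KO clones; bars are means, error bars SD (n = 3), and points single clones. SDHA, SDHC and ATP5G3 have higher means in the ZEB1-KO clones, and SDHB, SDHD, ATP5G1 and ATP5G2 have lower means. On log2(TPM + 1) the median of all genes was also higher, at 0.233. In CPM the ATP5G3 groups overlapped, with a log2 fold change of 0.07 (SE 0.20).

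Of the other genes whose names begin with ATP5, ATP5J2 (-0.96, SE 0.29), ATP5L (-0.95, SE 0.35) and ATP5I (-0.43, SE 0.30) encode small membrane-sector subunits. ATP5S, a factor outside the enzyme's core with the lowest level at a mean of 18.6 TPM, had -0.35 (SE 0.26). ATP5SL, now known as an assembly factor of complex I, had 0.04 (SE 0.23). ATP5L2, a near copy of ATP5L, had 3 to 11 counts a library and was not tested. Without the rule's 5 symbols that are not structural subunits (ATP5S, ATP5SL, ATP5L2, COX7A2L and UQCRHL), 64 of 75 tested genes were negative and the median remained -0.63.

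Short transcripts in general were less abundant in the ZEB1-KO clones, and most subunit genes are short. Of the 77 subunits with a length, 51 fell in the shortest of 10 equal classes of length. Their median log2 fold change was -0.64, 49 of 51 were negative and 58.8% had an unadjusted p below 0.05 on the lower side. The 1053 other genes of that class had a median of -0.33, and 20.8% were lower at that p. Among the 399 of these with at least 100 CPM, as most subunits have, the median was -0.38 and the share 28.3%. In the next class, 10 subunits had a median of -0.41, against -0.08 over the other genes and -0.21 over those of at least 100 CPM.

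The short genes also followed the clones. The median deviation of the other genes in the shortest class was 0.11, 0.14 and 0.22 in the WT clones and -0.050, -0.27 and -0.14 in the ZEB1-KO clones. ZEB1-KO replicate 2 was lowest and replicate 1 least low, the same order of ZEB1-KO clones as for the subunits. Among the 77 subunits, the log2 fold change and the log2 relative length had a Pearson r of 0.43 and a Spearman rho of 0.37, computed across genes that share the same 6 libraries. Over all other genes, where the median was highest at middle lengths, rho was -0.0023.

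With the trend over length removed from the fit, an alternative added after the data were seen, the median of the subunits was -0.27. Of these, 58 of 77 were negative and 18 were lower at an unadjusted p below 0.05, with 1 higher. In this fit 8.2% of all genes were lower at that p. On this scale 9 subunits with a negative value in the main fit were positive (NDUFA3, NDUFS3, NDUFB10, ATP5I, NDUFB9, NDUFS6, ATP5D, NDUFB11 and COX8A, at 0.05 to 0.33), and 2 went the other way, ATP5G3 among them. Removing trends over length and GC content left a median of -0.26 and 57 of 77 negative. There 11 subunits turned positive, COX7C (0.17), COX7A2L, COX7B, ATP5E and UQCRH among them, while COX8A, ATP5D and NDUFB11 kept a negative value. ATP5J was -1.14 (adjusted p = 0.0786, quasi-likelihood) with the length trend removed. The part of transcript length in the subunits' lower values was not tested further.

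**Figure D4:**
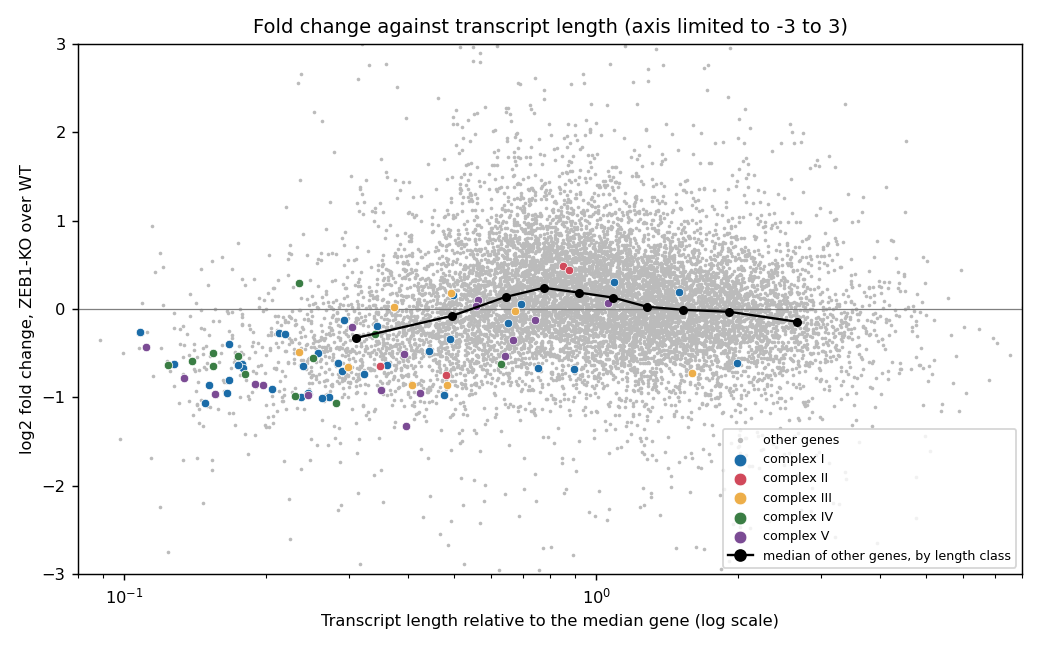
Each point is a gene, with transcript length relative to the median gene on a log horizontal axis and the log2 fold change (ZEB1-KO over WT) on the vertical axis; subunits are coloured by complex and the black line joins medians of other genes in 10 equal classes of length. The line starts at -0.33 in the shortest class, where 51 of the 77 subunits lie at a median of -0.64, and peaks at 0.24 in class 4.

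Scaling moved the level of all genes and of the subunits together. With library size alone the subunits had a median of -0.47 and all genes 0.14, and on log2(TPM + 1) the medians were -0.35 and 0.23. The distance between the subunits and all genes thus stayed near its main size, but 7 subunits turned positive on the TPM scale: ATP5A1, ATP5D, NDUFB10, NDUFB11, NDUFS3, NDUFV3 and UQCRC2.

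Other genes of mitochondrial biogenesis give the context. Of 53 assembly factors of the 5 complexes, 36 were lower (12 at an unadjusted p below 0.05) and 5 higher at that p, with a median of -0.23. Over all genes, 8.04% were lower and 9.64% higher at that p, which is the background for each list below. The assembly factors were longer than the subunits (median relative length 0.539 against 0.292). Lower were PET100 (-1.06, SE 0.25) and COA3 (-0.84, SE 0.24), both needed for complex IV, and TIMMDC1 (-0.75, SE 0.19), needed for complex I. ACAD9, a complex I assembly factor, had 27.6, 21.8 and 27.5 CPM in the WT clones and 59.9, 81.9 and 49.6 CPM in the ZEB1-KO clones (1.32, SE 0.25, adjusted p = 0.0885). FASTKD5, which processes mitochondrial RNA, was also higher without overlap (1.03, SE 0.20, adjusted p = 0.0891).

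By complex, the assembly factors had medians of -0.23 for complex I (13 genes), -0.38 for complex II (4), -0.051 for complex III (6), -0.17 for complex IV (24) and -0.36 for complex V (6). The complex V list, and so the 53, counts ATPIF1 (-0.48), USMG5 (-0.68) and C14orf2 (-0.45), which are bound in or to the enzyme and are not assembly factors. Proteins of the mitochondrial ribosome, which makes the mitochondrially encoded subunits, were lower in 56 of 77 cases (20 at an unadjusted p below 0.05, 3 higher, median -0.31, median relative length 0.403). The lowest p among them belonged to MRPL33, at -1.13 (SE 0.24, adjusted p = 0.0942).

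Cytosolic ribosomal proteins were as short as the subunits (median relative length 0.254) and abundant. Their median was -0.14. At an unadjusted p below 0.05, where 8.04% of all genes were lower and 9.64% higher, 6 of 80 were lower and 2 higher. Their median deviations were 0.16, 0.11 and -0.019 in the WT clones and 0.20, -0.20 and -0.21 in the ZEB1-KO clones, so that ZEB1-KO replicate 1 stood with the high WT clones.

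Genes of the TCA cycle and pyruvate dehydrogenase leaned the other way: 5 of 22 were negative and the median was 0.24. The list includes regulators of the dehydrogenase, which do not feed electrons to the chain. These are the kinases PDK1, PDK2 and PDK3 and the phosphatase PDP1, all positive (0.69, 0.59, 0.25 and 0.29). Citrate synthase (CS) had 83.8, 56.2 and 45.5 CPM against 152, 181 and 109 CPM, with all ZEB1-KO clones higher (1.25, SE 0.29, adjusted p = 0.110). The kinase PDK1 had 0.69 (SE 0.25), while PDHB, a subunit of pyruvate dehydrogenase, had -0.70 (SE 0.21). At an unadjusted p below 0.05, where 9.64% of all genes were higher and 8.04% lower, 5 of the 22 were higher and 1 lower. Their median relative length was 0.872, a length at which other genes had a median of 0.19.

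Import components (22 genes, median -0.042) and carriers and pores (10 genes, -0.046) lay near all genes. Among 14 tested regulators the median was 0.14. TFB1M, which methylates mitochondrial ribosomal RNA, had 48.7, 41.7 and 55.9 CPM against 23.7, 24.01 and 24.5 CPM (-1.02, SE 0.20, adjusted p = 0.0930). NRF1, an activator of many subunit genes, had 5.13, 5.92 and 5.79 CPM against 10.5, 14.03 and 9.49 CPM (1.01, SE 0.27, adjusted p = 0.123). HIF1A was high in ZEB1-KO replicate 3 alone (286 CPM, against 64.2 to 101 elsewhere). PPARGC1A had 0 counts in all libraries. No gene of these lists passed the adjusted threshold in the quasi-likelihood test. DESeq2 called 4 assembly factors lower and 3 higher, and 6 mitochondrial and 1 cytosolic ribosomal protein genes lower. It called 2 genes of the TCA cycle and pyruvate dehydrogenase list and 1 import gene higher, 1 regulator lower and 1 higher, and 0 carriers. Over all genes it called 2.78% lower and 4.34% higher. Whether any list differed from the subunits was not tested.

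**Figure D5:**
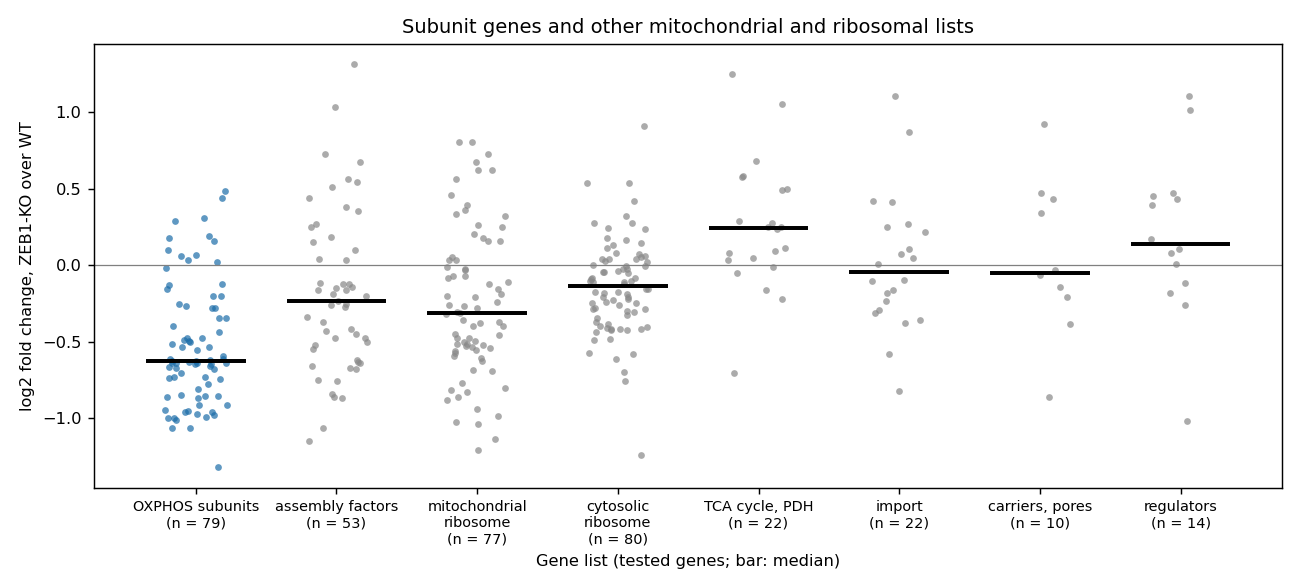
Each point is a tested gene and shows its log2 fold change (vertical axis, ZEB1-KO over WT) in the gene lists on the horizontal axis; black bars are medians. The subunits have a median of -0.63, mitochondrial ribosomal proteins -0.31, assembly factors -0.23 and cytosolic ribosomal proteins -0.14. Genes of the TCA cycle and pyruvate dehydrogenase, with its regulators, have 0.24.

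Steady-state levels, compared per length as mean deposited TPM over the 6 libraries, differed widely within each complex. Complex IV genes had the highest median, 1440 TPM, followed by complex V at 779, complex III at 651, complex I at 409 and complex II at 295. The highest and lowest were NDUFA1 (2302) and NDUFA5 (39.6) in complex I, SDHB (756) and SDHC (39.6) in complex II, UQCRH (1439) and UQCRB (67.9) in complex III, COX7C (3597) and COX7A2L (375) in complex IV, and ATP5O (2505) and ATP5S (18.6) in complex V. Levels of the low genes are uncertain where the length used for TPM is not that of the transcript made in these cells, as NDUFA5 and UQCRB have implied lengths of 1.98 and 1.59 times the median gene.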

How the data were processed

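RNA-seq libraries of 3 WT and 3 ZEB1-KO MiaPaCa2 clones were compared. The submitters' processing notes name hg19/GRCh37, TopHat2 2.1.0, HTSeq 0.6.1 and edgeR 3.2.2, with no settings or strand use. The authors deposited integer counts per gene symbol, TPM values for 11013 genes, and a table of their own comparison with log2 fold changes, a test statistic (score) and p-values. Here the counts as deposited were tested in edgeR 4.0.16 (R 4.3.3; filterByExpr with a minimum count of 10 and a total of 15, TMM factors, quasi-likelihood fit on group alone). Tests were two-sided, and p-values were adjusted by Benjamini and Hochberg's method across the 13659 genes, with a threshold of 0.05. CPM use TMM-scaled library sizes, and levels are deposited TPM. The deposited score is headed LR, for likelihood ratio. Own and deposited log2 fold changes had a correlation of 1.00 across genes. Alternatives were DESeq2 1.42.0, limma 3.58.1 and those in the closing section; the length and GC trends were added after seeing the data. The script was tested on simulated data.

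Members and gene lists were chosen with earlier results of these data known. Named genes are members past the threshold, the 10 largest values in each direction at a mean of at least 5 CPM, the highest and lowest TPM of each complex, isoform groups, core subunits, and up to 4 of smallest p in each other list; a few further members named beside them (such as NDUFA9, NDUFB11, NDUFA13 and UQCRQ) were chosen after their values were seen. Results of 2 genes are not reported here by name, though counts and medians include them. p-values measure spread between clones. Overlapping genes and near-identical copies may share reads, as may NDUFA6, NDUFB2 and NDUFV2 with their antisense genes.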

Additional observations from a re-analysis of the deposited data

How the results depend on the processing

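Of 1050 comparisons of 46 named subunits with an alternative, 978 kept the direction and the side of the threshold, 28 passed the threshold where the main test did not, and 44 changed direction, in 15 subunits. All genes called, 24 in the quasi-likelihood test, came to 134 with no filter on low counts, 935 with DESeq2, 562 with edgeR's exact test, 617 with its likelihood ratio test, and 101, 94 and 80 with limma on log2(TPM + 1), log2(TPM + 0.1) and unfiltered log2(TPM + 1). Leaving out 1 library gave 5 to 25, where omitting WT clones 1, 2 and 3 gave 13, 6 and 5, and omitting ZEB1-KO clone 1 gave 6. Subunits called, 0 in the main test, came to 1 with no filter (ATP5J), 14 with DESeq2, 10 with the exact test and 11 with the likelihood ratio test, and to 0 without each library in turn. With the length trend removed, the likelihood ratio test called 434 genes and 2 subunits (ATP5J and NDUFA11).

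Subunits at an unadjusted p below 0.05, 40 in the main test, were 24, 23 and 24 on the TPM scales (4, 3 and 4 of them higher), 19 with the length trend removed, 17 with length and GC trends removed and 18 by the likelihood ratio test with the length trend removed. They were 28 to 49 without 1 library. The share of all genes lower at that p was 8.04% in the main test, 3.67%, 3.63% and 3.6% on the TPM scales, and 5.42% to 9.03% without 1 library. It was 8.2% with the length trend removed, 9.36% with length and GC trends removed and 7.47% by the likelihood ratio test with the length trend removed. The share of all genes higher at that p was not computed for the alternatives. The median log2 fold change was -0.353, -0.354 and -0.353 on the TPM scales, -0.272, -0.262 and -0.272 with those trends removed, and -0.73 to -0.50 without 1 library. With the replicate number as a block, 35 subunits had an unadjusted p below 0.05, the median was -0.627 and 20 genes were called. With that block, 7.64% of all genes were lower at that p. Libraries that share a number had deviations correlated at 0.0219, 0.00714 and 0.224, so the numbers were not taken as pairs.

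The named subunits changed direction as follows; over all tested subunits, 7 turned positive on the TPM scales, 9 turned positive and 2 negative with the length trend removed, and 11 and 3 with length and GC trends removed. With library size alone, NDUFS3 was 0.0216, UQCRC2 0.116 and ATP5A1 0.00921. On the TPM scales NDUFS3 was 0.153, 0.153 and 0.153, UQCRC2 0.236, 0.237 and 0.236, ATP5A1 0.138, 0.139 and 0.138, and ATP5D 0.0708, 0.0725 and 0.0708. With the length trend removed, by either test, ATP5G3 was -0.0576, COX8A 0.0530, NDUFS3 0.209 and ATP5D 0.119. With length and GC trends removed, ATP5G3 was -0.0172, UQCRH 0.0120, COX7C 0.165, COX7A2L 0.139, COX7B 0.123, NDUFS3 0.174 and ATP5E 0.101. Without 1 library, values ran from -0.0354 to 0.395 for UQCRC1, -0.0367 to 0.391 for NDUFV1, -0.0138 to 0.276 for ATP5B, -0.0345 to 0.183 for ATP5G3, -0.0877 to 0.119 for UQCRFS1, -0.201 to 0.0989 for UQCRC2, -0.261 to 0.00381 for ATP5A1 and -0.478 to 0.104 for ATP5D. The cause of each change was not tested. Depth limits the tissue forms of complex IV and the copies UQCRHL and ATP5L2.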
